A study of Mus musculus with 18 samples.

Results

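The SKG mutation of the kinase ZAP70 was compared in its effect on 2 thymic populations of invariant natural killer T (iNKT) cells, NKT17 and NKT1. For each gene the SKG effect (SKG minus WT, log2 fold change) in NKT1 was subtracted from the SKG effect in NKT17. The result is a difference of 2 log2 fold changes, called the effect difference here. A positive value means that SKG was higher relative to WT in NKT17 than it was in NKT1. The members were 12 of the 18 RNA-seq libraries of the series, chosen by the genotype and cell type in their labels, with 3 libraries in each of 4 groups. The question was for which genes the 2 genotypes differed to an unequal extent in the 2 subsets.

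All cells came from the thymus of mice labelled with the background strain BALB/c, and no treatment or age was given. WT mice and SKG mice were third-generation descendants of a cross of SKG with BALB/cJ, and the 2 genotypes had been bred apart since the second generation. Both genotypes therefore carry the same mixed parentage, and any locus other than Zap70 that became fixed in 1 line cannot be told apart from the mutation. NKT1 cells were sorted as CD1d tetramer-positive, ICOS-low and CD49a-positive, and NKT17 cells as tetramer-positive, CD49-negative, ICOS-high and Sdc-1-positive. CD49a and Sdc-1 are the products of Itga1 and Sdc1, so the subset levels of these genes follow from the gates. The libraries are listed as separate samples, and it is not stated whether each came from its own animal. The p-values therefore measure the spread between these samples, part of which may be technical. Sex-linked transcripts, given below, differed within each group, so the libraries of a group did not all come from the same animal.

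iNKT cells are T lymphocytes whose semi-invariant T cell receptor (TCR) recognises lipids held by CD1d. NKT1 cells are known for T-bet, interferon-γ and a cytotoxic and NK receptor repertoire, and NKT17 cells for IL-17. ZAP70 binds the phosphorylated chains of the TCR complex and passes the signal to its adaptors, and the SKG form of the protein binds them poorly. TCR signal strength is known to bear on which subset an iNKT cell enters.

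The 12 libraries held 4938755 to 8895917 counts, so 3 counts, the floor below which a level was treated as not measured, corresponded to 0.470 to 0.564 CPM (counts per 1000000 counts) by group. Reads had no molecular identifiers, so this floor covers counting error only. The subset labels matched their defining genes. Il23r, the IL-23 receptor gene of IL-17-producing cells, was at 451 to 457 CPM in WT NKT17, at 236 to 251 CPM in SKG NKT17 and at the floor in both NKT1 groups. Tbx21, which encodes T-bet, was at 519.8 to 565 CPM in WT NKT1, at 389 to 550.3 CPM in SKG NKT1 and at most 2.98 CPM in NKT17. In each of the 4 groups 1 of the 3 libraries contained Xist, the transcript of the inactive X chromosome, and held 0 CPM of the Y-linked gene Eif2s3y. The other libraries held Eif2s3y at 79 to 126 CPM. In WT the Xist library was replicate 1 in both subsets, with Xist at 194 CPM in NKT1 and 241 CPM in NKT17. In SKG it was replicate 2 in both, at 284 CPM and 300 CPM. Within a genotype the Xist libraries of the subsets thus carried the same number in their titles.

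Of markers of other cells, the B cell gene Pax5, the thymocyte genes Rag2, Dntt and Arpp21 and the myeloid genes Csf1r and Itgam were at 0 in all 12 libraries. The summed level of 6 B cell markers was 25.6 to 41.9 CPM in SKG NKT17 against 8.51 to 12.2 CPM in WT NKT17, and Cd79b accounted for 24.6 to 40.0 CPM of it. The summed level of 9 double-positive thymocyte markers was 37.9 to 68.4 CPM in SKG NKT17 and 33.4 to 41.2 CPM in WT NKT17, against 17.3 to 43.2 CPM in NKT1. Within that list Cd8b1 was at 12.4 to 36.8 CPM in SKG NKT17 and at 1.76 to 11.8 CPM in WT NKT17. Rmnd5a was at 20.5 to 23.8 CPM in SKG NKT17, 27.1 to 33.1 CPM in WT NKT17 and 12.3 to 24.8 CPM in NKT1. The summed level of 11 myeloid markers was 269 to 312 CPM in SKG NKT17, 227 to 319 CPM in WT NKT17 and 150 to 222 CPM in NKT1. Nearly all of it was Cst3, at 269 to 309 CPM, 222 to 316 CPM and 148 to 218 CPM in turn. The highest level of any other member was 7.62 CPM, for Lyz2. Other marker lists had lower sums in SKG NKT17. Of 6 listed gamma delta T cell markers only 2, Sox13 and 5830411N06Rik, were among the counted genes. The listed TCR chain genes were not, so these 2 cannot tell gamma delta T cells from NKT17 cells that express them. Their sum was 1440 to 2140 CPM in WT NKT17 and 1210 to 1380 CPM in SKG NKT17. In WT and SKG NKT1 it was 29.6 to 50 CPM and 71.7 to 106 CPM. Sox13 was at 276 to 344 CPM in WT NKT17 and 85 to 134 CPM in SKG NKT17. The sum of 6 thymic epithelial cell markers was 14.8 to 20.5 CPM in WT NKT17 and 7.15 to 11.4 CPM in SKG NKT17. The part of all these transcripts in the results was not tested.

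Zap70 itself, at chr1:36818695-36839663 of NCBIM37 (mm9), was at 801, 852 and 716 CPM in WT NKT17 and at 565, 453 and 564 CPM in SKG NKT17. In NKT1 it was at 516, 569 and 605 CPM in WT and at 483, 421 and 529 CPM in SKG. The libraries of the 2 genotypes did not overlap in NKT17 and overlapped in NKT1. Its effect difference was -0.34 ± 0.16 (SE, edgeR quasi-likelihood test, adjusted p = 0.325) and was not called. SKG is a point mutation, so the level of the transcript does not check the genotype.

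A gene was called when its Benjamini-Hochberg adjusted p, over all 11118 genes tested with edgeR's quasi-likelihood test, was under 0.1 and its effect difference was at least 1.5-fold. The effect difference was called for 464 of 11118 genes (4.17%), of which 228 were positive (2.05%) and 236 negative (2.12%). At an unadjusted p under 0.05 there were 1652 genes. In such bulk libraries, fewer cells that express a gene and less RNA per cell cannot be told apart. The SKG effect itself was called for 931 genes in NKT17 (8.37%) and for 364 genes in NKT1 (3.27%). Of all tested genes 3.83% were higher and 4.54% lower in SKG NKT17, and 1.46% were higher and 1.82% lower in SKG NKT1. These comparisons share libraries, so the counts are given side by side only. The count of 464 depended on single libraries, and without SKG NKT17 replicate 3 it was 296. With only the libraries that lacked Xist it was 203, of which 172 were among the 464.

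The called genes were classed by whether the SKG effect in each subset passed the same thresholds. In 132 genes SKG was higher than WT in NKT17 alone, and in 118 genes it was lower in NKT17 alone. In 44 genes SKG was higher in NKT1 alone and in 36 it was lower in NKT1 alone. In 17 genes both effects were called and ran in opposite directions. In 9 genes SKG was higher in both subsets and in 11 it was lower in both, to unequal extents, and in 97 genes neither effect passed on its own. Of the 464 genes, 44 had at least 1 group at the floor. For those the fitted difference is not a measured size, and their levels are given in its place. Of the 94 called genes that were followed through up to 25 alternative analyses, 36 kept their call in all of them. The others of the 94 named here are given with the number of alternatives that lost the call, where that number was 6 or more. Gimap genes other than Gimap4, and genes under other observations except Phgdh, were not followed in this way.

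**Figure D1:**
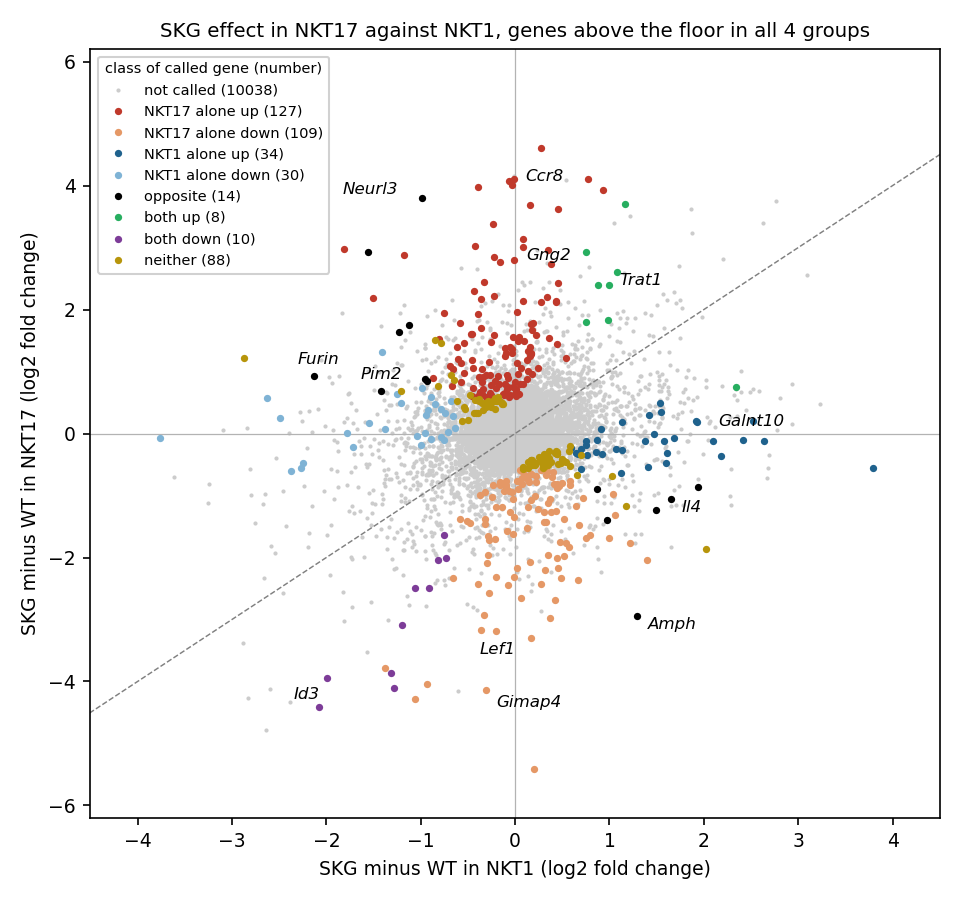
SKG effect in NKT17 (vertical axis, log2 fold change) against the SKG effect in NKT1 (horizontal axis, log2 fold change) for genes above the floor in all 4 groups. Coloured points are the 420 called genes so drawn, by class, and grey points are 10038 genes that were not called. The dashed line marks equal effects, and 1 uncalled gene lies outside the axes. The largest classes drawn are the genes called in NKT17 alone, above and below 0 on the vertical axis.

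The effect difference with the smallest p was that of Pim2, a serine/threonine kinase gene that cytokines induce, at chrX:7455388-7460558. It was at 478, 412 and 465 CPM in WT NKT1 and at 167, 190.2 and 151 CPM in SKG NKT1, an effect of -1.42 ± 0.13 (SE). In NKT17 it went the other way, from 202, 268 and 215 CPM in WT to 403, 329.9 and 365 CPM in SKG, an effect of 0.68 ± 0.13. The 2 genotypes were separated in both subsets. The effect difference was 2.10 ± 0.18 (SE, adjusted p = 7.71e-07), and WT NKT17 held 50.6% of the WT NKT1 level, and SKG NKT17 held 217% of the SKG NKT1 level.

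Furin, a protease that cleaves precursor proteins and is induced by T cell activation, at chr7:87533471-87550322, followed the same pattern. It was at 90.3, 93.0 and 90.2 CPM in WT NKT1 and at 20.99, 21.2 and 20.1 CPM in SKG NKT1. In NKT17 it was at 24.0, 26.1 and 47.1 CPM in WT and at 62.0, 63.2 and 60.2 CPM in SKG. All 3 SKG NKT1 libraries lay below the lowest WT NKT1 library, and all 3 SKG NKT17 libraries lay above the highest WT NKT17 library. For Furin the effect difference was 3.06 ± 0.30 (SE, adjusted p = 3.72e-06).

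Other genes that were lower in SKG NKT1 and higher in SKG NKT17 were Neurl3, a ubiquitin ligase gene, Fes, a tyrosine kinase gene, Gadd45g, a stress- and cytokine-induced gene, and Amica1, which encodes the junctional adhesion protein JAML. Neurl3 was at 174 ± 20.8 CPM (SD, n = 3) in WT NKT1 and at 87.7 ± 12.3 CPM in SKG NKT1, and at 0.586, 0.348 and 1.65 CPM in WT NKT17 and 13.9, 9.77 and 15.6 CPM in SKG NKT17. Beside Furin on the same strand lies Fes, at chr7:87522641-87532832, and whether their changes are independent was not tested. Fes was at 25.5, 32.3 and 35.1 CPM in WT NKT1 and 7.62, 16.0 and 7.97 CPM in SKG NKT1, and rose from 1.37, 1.91 and 3.43 CPM to 21.2, 14.1 and 17.6 CPM in NKT17. After these shifts Fes was at 168% of its NKT1 level in SKG NKT17, where WT NKT17 had been at 7.23%. Gadd45g crossed over likewise, with NKT17 at 42.7% of NKT1 in WT and at 311% in SKG. Amica1 went from 251, 129.8 and 162 CPM to 88.8, 87.9 and 108 CPM in NKT1 and from 175, 222 and 229 CPM to 394, 341 and 391 CPM in NKT17. The effect differences of Neurl3, Fes, Gadd45g and Amica1 were 4.78 ± 0.48, 4.49 ± 0.57, 2.86 ± 0.44 and 1.78 ± 0.29 (SE), each kept in all alternatives.

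Il4, which encodes the type 2 cytokine interleukin 4, ran in the opposite sense. It was at 7.73, 13.0 and 25.3 CPM in WT NKT1 and at 39.2, 47.1 and 56.1 CPM in SKG NKT1, and at 21.9, 31.3 and 24.0 CPM in WT NKT17 and 14.6, 11.2 and 11.1 CPM in SKG NKT17. The genotypes did not overlap in either subset, and the effect difference was -2.71 ± 0.45 (SE, adjusted p = 0.00222). Amph, an endocytic protein gene, Trpm6, a magnesium channel gene, and Ptpn13, a tyrosine phosphatase gene, also rose in SKG NKT1 and fell in SKG NKT17. Amph was at 0.966, 3.63 and 2.83 CPM in WT NKT1 and 6.87, 6.87 and 3.81 CPM in SKG NKT1, and at 72.2, 56.2 and 53.4 CPM in WT NKT17 and 7.37, 10.5 and 5.63 CPM in SKG NKT17. In WT the NKT17 level was 2447% of the NKT1 level for Amph, 1113% for Trpm6 and 539.5% for Ptpn13. In SKG the subsets lay closer, with Amph at 134%, Trpm6 at 161% and Ptpn13 at 104% of the SKG NKT1 level. The effect differences of Amph, Trpm6 and Ptpn13 were -4.24 ± 0.51, -2.79 ± 0.35 and -2.38 ± 0.32 (SE).

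**Figure D2:**
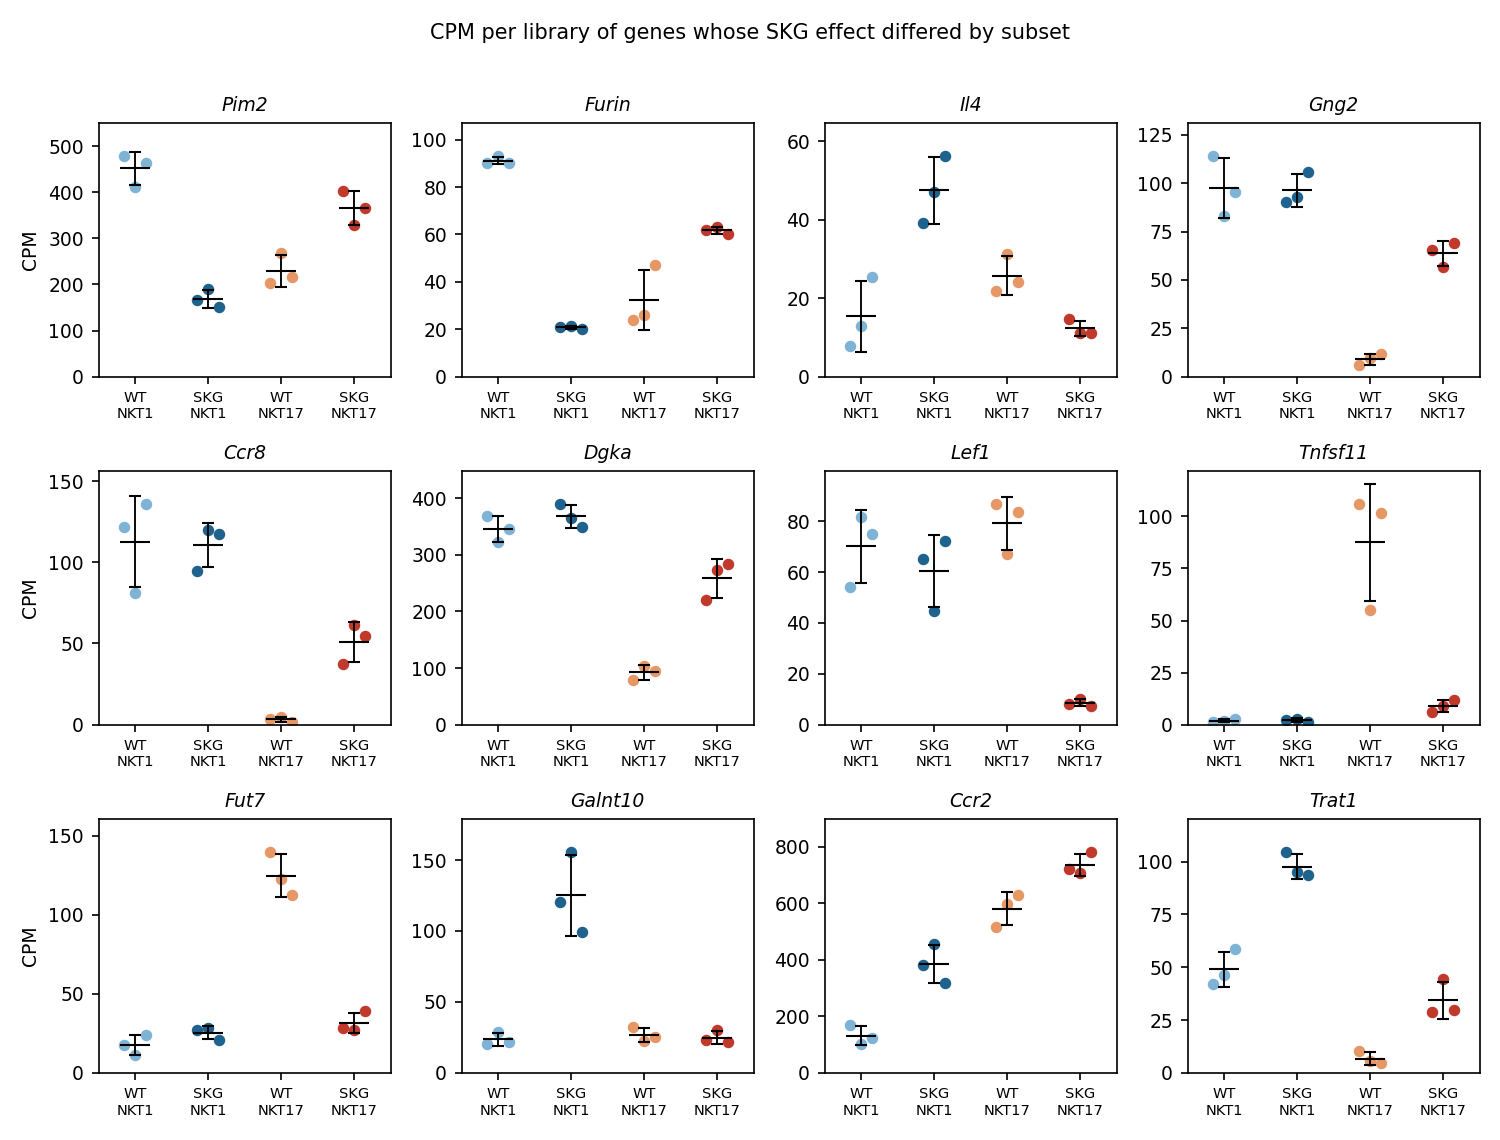
CPM in each library (points, vertical axes from 0) of 12 genes in WT NKT1, SKG NKT1, WT NKT17 and SKG NKT17. Bars give the mean and SD of 3 libraries. Pim2 and Furin fell in SKG NKT1 and rose in SKG NKT17, Il4 did the reverse, Trat1 rose in both, Gng2, Ccr8 and Dgka rose in SKG NKT17, Lef1, Tnfsf11 and Fut7 fell in SKG NKT17, and Galnt10 and Ccr2 rose in SKG NKT1.

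The largest class, 132 genes higher in SKG NKT17 alone, held Gng2, which encodes a subunit of heterotrimeric G proteins. It was at 6.05, 9.39 and 11.7 CPM in WT NKT17 and at 65.7, 56.5 and 69.2 CPM in SKG NKT17, with NKT1 at 97.4 ± 15.6 CPM (SD, n = 3) in WT and 96.4 ± 8.46 CPM in SKG. The effect difference was 2.82 ± 0.29 (SE, adjusted p = 5.74e-06), and the rise took Gng2 from 9.27% to 66.2% of its NKT1 level. Qpct, which encodes glutaminyl-peptide cyclotransferase, went from 91.8, 115 and 104 CPM to 287, 344 and 290 CPM in NKT17 and from 31.8% to 91.4% of NKT1. Ttc39c went from 8.20, 8.35 and 5.76 CPM to 36.7, 31.6 and 34.7 CPM and from 10.3% to 55.4% of NKT1. The NKT1 effects of Gng2, Qpct and Ttc39c were -0.02, 0.04 and -0.22, none of them called.

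Mctp2, a calcium-binding membrane protein gene, and Icosl, which encodes the ligand of ICOS, also rose in NKT17, from under 1 CPM in each WT library. Mctp2 was at 0.976, 0.174 and 0.686 CPM in WT NKT17 and 9.21, 11.3 and 9.01 CPM in SKG NKT17. Icosl was at the floor in WT NKT17 and at 0.283, 1.40 and 1.13 CPM in SKG NKT17, at least 1.89-fold higher. In NKT1 Icosl was at 30.3, 27.1 and 18.4 CPM in WT and 14.3, 14.2 and 13.3 CPM in SKG, which did not overlap either, although that effect was not called (adjusted p = 0.309).

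Gene lists were chosen with earlier results of these data known, and some genes are in several lists. The list counts here and below therefore describe these libraries and carry no test. Genes of the NKT1 programme were followed as a list of 15, of which 3 were called positive (2.05% of all genes) and 0 negative. For 7 of the 15 at least 1 NKT17 group was at the floor, and for 3 of them both were. The 3 called genes were Nkg7, Klrd1 and Fasl. Nkg7, a cytotoxic granule membrane protein gene, was at 3.71, 1.39 and 2.33 CPM in WT NKT17 and 41.1, 13.3 and 21.2 CPM in SKG NKT17, against 4628 ± 318 CPM (SD, n = 3) in WT NKT1. Fasl, the death ligand gene, was at 2.15, 2.61 and 2.33 CPM and 11.8, 9.95 and 10.3 CPM in WT and SKG NKT17, with an effect difference of 2.52 ± 0.31 (SE, adjusted p = 3.86e-05). Klrd1, which encodes the NK receptor chain CD94, was at the floor in WT NKT17 and at 3.26, 2.27 and 1.31 CPM in SKG NKT17, at least 4.60-fold higher.

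The raised levels of these 3 genes were small beside those of NKT1. SKG NKT17 held 0.642% of the SKG NKT1 level of Nkg7, 0.637% of Klrd1 and 2.46% of Fasl. For other NKT1 genes, none of them called for the difference, the share was 0.0997% for Ccl5, 0.148% for Gzma, 0.285% for Tbx21 and 0.140% for Xcl1. Some members of the list ran the other way in NKT17. Il2rb, a chain gene of the IL-2 and IL-15 receptors, fell there from 294, 278 and 321 CPM to 205, 155 and 187 CPM, and Il18rap, an IL-18 receptor chain gene, from 78.3, 79.0 and 99.1 CPM to 50.4, 53.4 and 52.4 CPM. SKG NKT17 held 8.59% of the SKG NKT1 level for Il2rb, 34.7% for Il18rap and 94.9% for Klrb1c, the NK1.1 gene. None of these 3 was called for the difference, and the summed level of the 15 genes was 403 to 482 CPM in WT NKT17 and 286 to 394 CPM in SKG NKT17. Ifng was at 0, 0 and 0.188 CPM in SKG NKT17 and Itga1 was at 0.142, 0 and 0 CPM, both within the floor. Whether NKT1 transcripts in the NKT17 gate had a part in the rises was not tested. The calls of Nkg7 and Klrd1 were lost in 11 of 25 and 6 of 25 alternative analyses, and that of Fasl in none.

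Of 18 tested genes of cytotoxic granules and death ligands, 4 were called positive (2.05% of all genes) and 0 negative, with a median effect difference of 0.452, against 0.0143 over all tested genes. Besides Nkg7 and Fasl these were Prf1, which encodes perforin, and Ctla2a, a cysteine protease inhibitor gene. Prf1 was at 1.56, 4.17 and 8.51 CPM in WT NKT17 and 36.0, 21.5 and 24.2 CPM in SKG NKT17, an effect of 2.45 ± 0.36 (SE), while NKT1 was at 254 ± 5.08 CPM (SD, n = 3) in WT and 202 ± 27.5 CPM in SKG. Ctla2a ran in opposite directions, from 259, 222 and 278 CPM to 94.8, 133 and 122 CPM in NKT1 and from 7.81, 14.1 and 5.76 CPM to 23.9, 41.7 and 27.2 CPM in NKT17. Gzmb was not called, with 2.43 to 14.3 CPM in WT NKT17 and 15.2 to 36.4 CPM in SKG NKT17.

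Among 25 tested NK receptors and adaptors, 3 were called positive (2.05% of all genes) and 1 negative (2.12% of all genes). Both NKT17 groups were at the floor for 13 of the 25, so that no NKT17 effect was measured for them. Within NKT1, 13 of the 25 were lower in SKG (1.82% of all genes), and within NKT17 3 were higher (3.83% of all genes) and 1 lower (4.54% of all genes). Klrk1, which encodes NKG2D, was at 2.93, 3.13 and 0.824 CPM in WT NKT17 and 27.6, 12.2 and 13.3 CPM in SKG NKT17, with an effect difference of 3.46 ± 0.56 (SE, adjusted p = 0.00399). Klrb1f, an NKR-P1 family receptor gene, was called for a fall in NKT1, at 83.3, 69.5 and 74.9 CPM in WT NKT1 and 18.0, 21.7 and 29.4 CPM in SKG NKT1, with NKT17 at 59.0 to 74.4 CPM and 51.0 to 68.0 CPM. Cd226, an activating receptor gene, was the negative call, with effects of -0.34 in NKT17 and 0.34 in NKT1, neither of them called. The lectin-like receptors of the Klra family are near-identical copies, so their counts are uncertain where reads fit several.

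Inhibitory receptors gave 4 positive calls and 1 negative call among 16 tested genes (31.2% against the 4.17% of all genes). Within NKT17, SKG was higher for 4 and lower for 5 (3.83% and 4.54% of all genes). Within NKT1 it was higher for 1 and lower for 5 (1.46% and 1.82% of all genes). The summed level of 22 listed genes was 2110 to 2280 CPM in WT NKT17 and 1320 to 1540 CPM in SKG NKT17. It was 1990 to 2330 CPM in WT NKT1 and 1460 to 1640 CPM in SKG NKT1. Cd96 rose in NKT17 from 386, 483 and 448 CPM to 713, 771 and 821 CPM and stayed at 375 to 480.2 CPM and 442 to 482 CPM in WT and SKG NKT1. Tigit, whose product competes with CD226 for ligand, was at 42.3, 32.8 and 48.0 CPM in WT NKT1 and 12.1, 4.37 and 9.18 CPM in SKG NKT1, and was at 0 in all WT NKT17 libraries and at 0.992, 0.523 and 0 CPM in SKG NKT17. The NKT17 levels of Tigit are a few reads per library, and its genotypes overlapped there. Cd101 fell in NKT1 and rose in NKT17, with effects of -0.95 and 0.88, and its call of the difference was lost in 1 of 25 alternatives. Cd72, whose product is better known from B cells, was at 60.7 to 81.9 CPM in WT NKT17 and 126 to 146 CPM in SKG NKT17, a call lost in 16 of 25 alternatives. Cd5, a negative regulator whose level tracks TCR signalling, was the negative call, at 242, 261 and 230.2 CPM in WT NKT17 and 82.4, 88.1 and 104 CPM in SKG NKT17, a call that 8 of 25 alternatives lost. The authors reported lower Cd5 expression in SKG NKT1 too, so the fall is not particular to NKT17. The effect difference of Cd5 was -1.11 to -0.668 over the alternatives.

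In proximal TCR signalling, the step at which ZAP70 acts, 5 of 46 tested genes were called positive (2.05% of all genes) and 2 negative (2.12% of all genes), with a median of 0.110. Dgka, Ubash3a and Pag1 are known as negative regulators of that signal. Dgka encodes diacylglycerol kinase α, which removes the lipid messenger diacylglycerol. It rose from 78.5, 104 and 94.6 CPM in WT NKT17 to 219, 272 and 285 CPM in SKG NKT17, against 323 to 369 CPM and 349.6 to 389 CPM in WT and SKG NKT1. Dgka had an effect difference of 1.40 ± 0.17 (SE, adjusted p = 3.02e-05).

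Ubash3a encodes STS-2, a protein of the Sts family that acts against TCR-proximal kinases. It was at 0.390, 1.39 and 2.33 CPM in WT NKT17 and 10.6, 15.5 and 13.1 CPM in SKG NKT17, an effect of 3.14 ± 0.31 (SE), and it remained at 7.13% of the NKT1 level. Pag1, the gene of the membrane adaptor that anchors the kinase CSK, and Grap, an adaptor gene related to Grb2, had smaller differences of 0.94 ± 0.27 and 0.63 ± 0.19 (SE), lost in 13 of 25 and 12 of 25 alternatives. Trat1, whose product TRIM associates with the TCR complex, rose in both subsets and more so in NKT17, from 10.2, 5.39 and 4.39 CPM to 28.6, 44.5 and 29.8 CPM there and from 42.3, 46.2 and 58.5 CPM to 104, 95.0 and 93.7 CPM in NKT1.

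The 2 negative calls were Cd247 and Themis. Cd247, the gene of the CD3ζ chain to which ZAP70 binds, was at 874, 960 and 727.4 CPM in WT NKT17 and 424, 478 and 441 CPM in SKG NKT17, while NKT1 was at 290.2 to 326 CPM in WT and 276 to 307 CPM in SKG. The effect difference of Cd247 was -0.87 ± 0.18 (SE, adjusted p = 0.00655). Themis, a thymocyte selection gene, rose in both subsets, from the floor to 17.6, 23.3 and 16.8 CPM in NKT1, at least 41.0-fold higher, and from 2.93, 8.69 and 3.02 CPM to 30.7, 51.1 and 36.4 CPM in NKT17.

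Of 43 tested genes induced by TCR signals, 4 were called positive and 3 negative (16.3% against 4.17% of all genes), with a median of -0.227. SKG was higher for 2 and lower for 12 of them in NKT17 (3.83% and 4.54% of all genes), and higher for 1 and lower for 8 in NKT1 (1.46% and 1.82% of all genes). Dusp6, a phosphatase gene that damps ERK, rose in both subsets, from 6.83, 1.56 and 3.98 CPM to 26.9, 20.8 and 16.5 CPM in NKT17 and from 40.8, 51.6 and 50.8 CPM to 92.5, 90.2 and 80.0 CPM in NKT1. Tnfrsf9, which encodes 4-1BB, fell in NKT1 from 34.6, 33.4 and 60.6 CPM to 5.57, 10.00 and 11.1 CPM and was at 4.94 to 5.66 CPM and 2.12 to 5.06 CPM in NKT17, with its call lost in 6 of 25 alternatives. Irf8, an interferon regulatory factor gene, fell in both subsets and further in NKT17, with effects of -3.09 ± 0.33 in NKT17 and -1.20 ± 0.27 in NKT1 (SE). Tnfrsf18, which encodes GITR, had an effect difference of 0.76 ± 0.18 (SE).

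Lineage transcription factors gave 2 positive and 4 negative calls among 42 tested (14.3% against 4.17% of all genes), with a median of -0.133. Lef1, a factor of the Wnt pathway and of early T cell programmes, at chr3:130813389-130927274, had the smallest p of all negative differences. It was at 86.7, 67.1 and 83.7 CPM in WT NKT17 and 8.22, 10.3 and 7.51 CPM in SKG NKT17. In NKT1 it was at 54.0, 81.5 and 75.1 CPM in WT and 65.0, 44.8 and 72.1 CPM in SKG. The SKG NKT17 libraries lay below all 9 others, and the effect difference was -2.98 ± 0.29 (SE, adjusted p = 5.74e-06).

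Id3, an inhibitor of E proteins induced downstream of the TCR, fell in both subsets. It went from 318, 344 and 161 CPM to 19.7, 16.8 and 16.9 CPM in NKT17 and from 23.4, 24.1 and 25.5 CPM to 6.32, 4.17 and 7.62 CPM in NKT1, and the effect difference was -1.95 ± 0.39 (SE, adjusted p = 0.0104). Runx1 rose in NKT1 alone, from 10.9, 11.8 and 11.5 CPM to 16.9, 19.6 and 17.9 CPM, and was called negative, while Runx2, with neither effect called, was called positive and was lost in 13 of 25 alternatives. Ikzf2, which encodes Helios, fell in NKT1 from 30.9, 38.0 and 29.2 CPM to 5.76, 16.4 and 6.58 CPM, a call lost in 16 of 25 alternatives. Hivep3 was at 10.2, 5.74 and 8.51 CPM in WT NKT17 and 1.70, 1.57 and 1.13 CPM in SKG NKT17, with its call lost in 6 of 24 alternatives.

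The NKT17 programme gave 1 negative call among 21 tested genes (4.76% against 4.17% of all genes), and at least 1 NKT1 group was at the floor for 10 of the 21. That gene was Tmem176b, a membrane protein gene, which rose in NKT1 from 19.9, 10.9 and 14.7 CPM to 48.5, 39.4 and 46.4 CPM while NKT17 was at 859 to 993 CPM in WT and 1050 to 1477 CPM in SKG. Where both NKT1 groups were at the floor, no NKT1 effect could be measured. Ccr6, a chemokine receptor gene, was at 18.4, 3.65 and 14.1 CPM in WT NKT17 and 593, 618 and 566 CPM in SKG NKT17, and both NKT1 groups were at the floor, and its difference had an adjusted p of 0.777. Il23r fell in NKT17 from 457, 455 and 451 CPM to 236, 251 and 246 CPM, again with both NKT1 groups at the floor. In all, 73 of the 931 genes called in NKT17 had both NKT1 groups at the floor, and 18 of the 364 called in NKT1 had both NKT17 groups there.

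The NKT2 programme gave 3 negative calls among 13 tested genes (23.1% against 2.12% of all genes), with a median of -0.505. They were Lef1, Il4 and Il13. Il13 was at 0.195, 1.04 and 0.824 CPM in WT NKT17 and 0 in all SKG NKT17 libraries, and at 0, 0 and 0.177 CPM and 0.557, 0.833 and 1.04 CPM in WT and SKG NKT1. These levels are a few reads per library.

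Cytokine and ligand genes gave 4 positive and 3 negative calls among 28 tested (25.0% against 4.17% of all genes). Tnfsf11, which encodes RANKL, fell in NKT17 from 106, 55.0 and 102 CPM to 6.09, 8.90 and 11.8 CPM and was at 1.45 to 2.66 CPM and 1.21 to 2.92 CPM in WT and SKG NKT1. Its effect difference was -3.48 ± 0.52 (SE, adjusted p = 2.66e-04). The lymphotoxin genes went the other way. Lta rose in NKT17 from 60.7, 67.1 and 70.8 CPM to 105, 121 and 129 CPM, and Ltb had effects of 0.33 in NKT17 and -0.39 in NKT1, neither of them called, and an effect difference of 0.72 ± 0.16 (SE). Cd40lg, the CD40 ligand gene, rose in NKT17 from 131, 143 and 136 CPM to 188, 224 and 233 CPM and was at 234 to 258 CPM and 241 to 255 CPM in NKT1.

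All 5 calls among 36 tested cytokine receptor genes were positive (13.9% against 2.05% of all genes), and the median of the list was 0.154. Il4ra rose in NKT17 from 23.6, 21.6 and 28.7 CPM to 62.0, 66.8 and 52.4 CPM and Il10rb from 47.2, 48.9 and 44.5 CPM to 87.5, 74.5 and 83.0 CPM, and both stayed below NKT1, at 42.9% and 29.1% of its level in SKG. Il2ra, the gene of the high-affinity IL-2 receptor chain, fell in NKT1 from 25.7, 31.9 and 25.3 CPM to 13.2, 7.71 and 13.7 CPM and was at 93.3 to 101 CPM and 138 to 157 CPM in NKT17. Tnfrsf1a and Tgfbr3 had effect differences of 0.82 ± 0.23 and 0.98 ± 0.30 (SE), lost in 9 of 25 and 13 of 25 alternatives. Of 23 JAK, STAT and SOCS genes, which carry and limit the signals of such receptors, 3 were called, all positive (13.0% against 2.05% of all genes). They were Pim2, Cish and Socs3. Cish rose in both subsets, with effects of 1.80 in NKT17 and 0.76 in NKT1 and its call lost in 8 of 25 alternatives, and Socs3 fell in NKT1 from 74.7, 29.6 and 73.2 CPM to 16.7, 32.1 and 19.9 CPM, with its call lost in 13 of 25 alternatives.

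Chemokine receptor and trafficking genes gave 4 positive and 2 negative calls among 37 tested (16.2% against 4.17% of all genes), with a median of 0.0732. Ccr8, a receptor of type 2 and skin-homing T cells, rose in NKT17 from 3.71, 4.70 and 1.37 CPM to 37.2, 61.2 and 54.6 CPM, against 81.2 to 136 CPM and 94.9 to 119.6 CPM in WT and SKG NKT1. Ccr8 had an effect difference of 4.04 ± 0.42 (SE, adjusted p = 2.07e-05). Ccr2, a receptor for monocyte chemokines, rose in NKT1 from 169.7, 101 and 124 CPM to 383, 454 and 318 CPM and was at 515 to 629 CPM and 707 to 779 CPM in NKT17.

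Cd44, the hyaluronan receptor gene, rose in NKT17 from 243, 276 and 278 CPM to 457, 429.9 and 506.9 CPM, with NKT1 at 327 to 381 CPM and 349 to 383 CPM. The integrin genes Itga4 and Itgb3 were called in opposite directions. Itga4 was at 58.5, 14.3 and 18.9 CPM in WT NKT1 and 8.55, 13.3 and 12.8 CPM in SKG NKT1, where 1 WT library stood far above the others, and Itgb3 was at 3.98, 6.49 and 0.886 CPM and 12.6, 14.0 and 10.1 CPM, with its call lost in 10 of 25 alternatives. Fut7, a fucosyltransferase gene needed for selectin ligands, fell in NKT17 from 139, 123 and 112 CPM to 28.6, 27.2 and 39.0 CPM and was at 11.5 to 23.9 CPM and 20.6 to 28.3 CPM in NKT1.

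**Figure D3:**
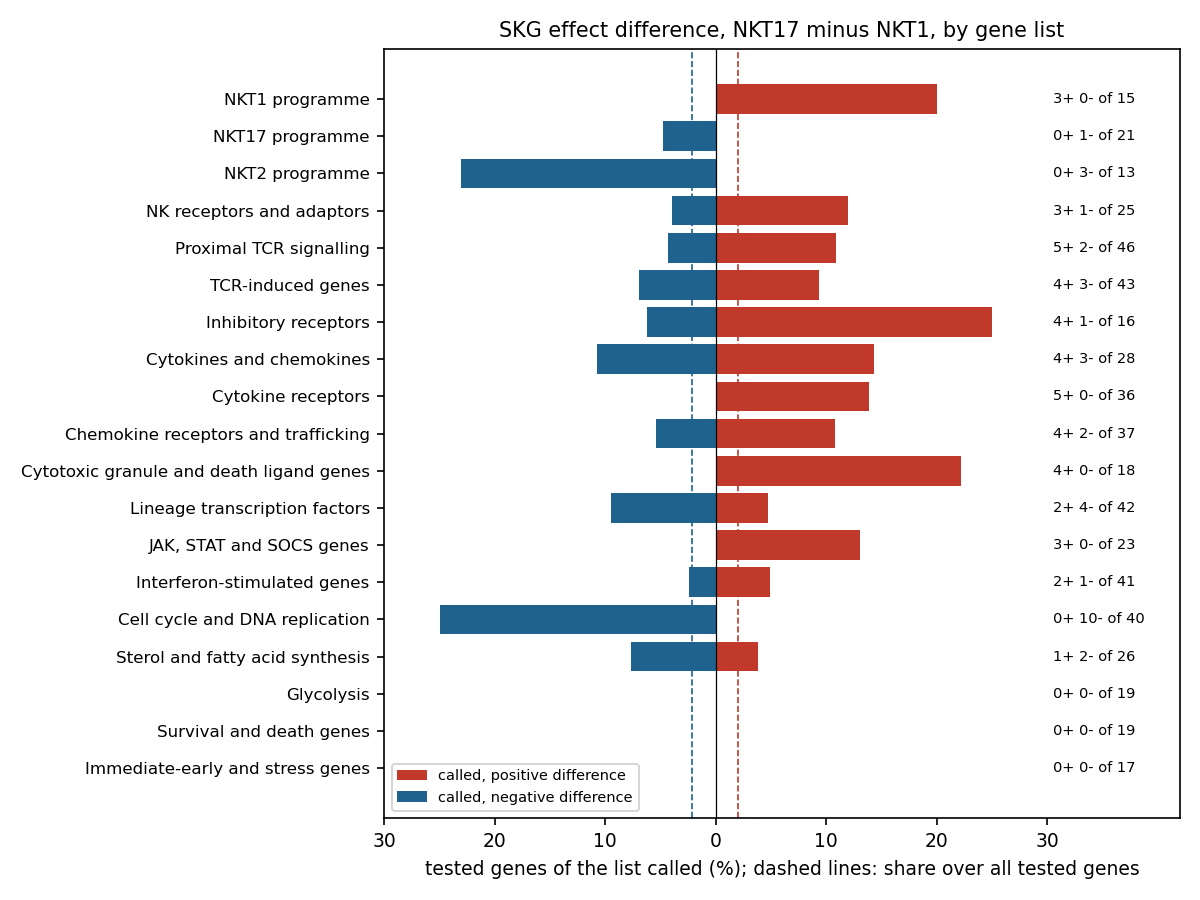
Share of tested genes of 19 gene lists that were called for the effect difference (horizontal axis, percent), positive to the right and negative to the left, with the counts at the right edge. Dashed lines mark 2.05% and 2.12%, the shares over all tested genes. The lists were chosen with earlier results of these data known and share some genes, so the shares carry no test. Cell cycle genes were called on the negative side only, 10 of 40, and glycolysis, survival and immediate-early genes were not called.

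Among the genes higher in SKG NKT1 alone, Galnt10 had the smallest p. It encodes an enzyme that starts mucin-type glycosylation and lies at chr11:57458944-57601016. It was at 20.2, 28.8 and 21.6 CPM in WT NKT1 and 120.4, 155 and 99.5 CPM in SKG NKT1, and at 32.2, 22.6 and 25.5 CPM and 23.1, 29.8 and 21.6 CPM in WT and SKG NKT17. The SKG NKT1 libraries lay above the other 9, and the effect difference was -2.52 ± 0.28 (SE, adjusted p = 1.25e-05). Several other genes of this class were NKT17 genes that appeared at low levels in SKG NKT1. She, an SH2 domain adaptor gene, was at 0 in all WT NKT1 libraries and at 1.49, 3.33 and 1.21 CPM in SKG NKT1, at least 4.28-fold higher, against 62.3 to 71.5 CPM in WT NKT17. Rnf144a, a ubiquitin ligase gene, was at 0.121, 1.53 and 0 CPM in WT NKT1 and 6.32, 7.29 and 7.10 CPM in SKG NKT1, against 71.0 to 124 CPM and 60.1 to 75.4 CPM in NKT17. Scamp1 and Armcx6 were at 0 in WT NKT1 and at most 2.77 CPM in SKG NKT1. Each call was lost in 2 of 24 alternatives, among them the fit without SKG NKT1 replicate 1 for Scamp1 and without SKG NKT1 replicate 3 for Armcx6.

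Among the genes lower in SKG NKT17 alone, Enox1 was at 61.7, 51.6 and 47.2 CPM in WT NKT17 and 0.567, 1.57 and 1.69 CPM in SKG NKT17, and at under 1 CPM in every NKT1 library. Sept5, a septin gene, fell from 41.0, 29.6 and 32.2 CPM to 8.07, 6.46 and 10.3 CPM, and both NKT1 groups were at the floor, so that no fold in NKT1 was measured. Slc16a10, an aromatic amino acid transporter gene, fell in NKT17 from 49.6, 53.4 and 27.7 CPM to 13.3, 12.6 and 12.8 CPM and was at 71.0 to 117 CPM and 122 to 149 CPM in NKT1. Phgdh, the first enzyme gene of serine synthesis, fell from 355, 346 and 267 CPM to 149.9, 171 and 138 CPM, with an effect difference of -1.25 ± 0.17 (SE, adjusted p = 8.77e-05).

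The list with the most negative calls was the cell cycle, with 10 of 40 tested genes (25.0% against 2.12% of all genes) and 0 positive. Like those of the other lists, this share carries no test. The effect difference was below 0 for 37 of the 40 (5402 of all 11118 genes), with a median of -0.768. SKG was lower for 24 of the 40 in NKT17 (4.54% of all genes) and for 3 in NKT1 (1.82% of all genes). The summed level of the 40 genes was 2560 to 3110 CPM in WT NKT17 and 1470 to 1860 CPM in SKG NKT17, which did not overlap, and 2510 to 3150 CPM in WT NKT1 and 2340 to 2760 CPM in SKG NKT1, which did.

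Mki67, the gene of the proliferation antigen Ki-67, was at 16.0, 8.69 and 14.3 CPM in WT NKT17 and 3.40, 2.97 and 5.82 CPM in SKG NKT17, and at 13.4, 15.1 and 9.92 CPM and 22.9, 26.9 and 14.9 CPM in NKT1, with an effect difference of -2.43 ± 0.45 (SE, adjusted p = 0.00341). Stmn1, a microtubule regulator gene, fell from 143, 79.0 and 95.1 CPM to 33.1, 35.2 and 27.2 CPM in NKT17, and Mcm3, a subunit gene of the replicative helicase, from 117, 135 and 129 CPM to 61.8, 68.2 and 57.4 CPM. Cdc25b, a cell cycle phosphatase gene outside the list, fell from 146, 99.6 and 89.9 CPM to 33.4, 28.8 and 36.2 CPM in NKT17, with an effect difference of -2.31 ± 0.32 (SE, adjusted p = 1.85e-04). The other called list genes were Top2a, Ccna2, Ccne1, Plk1, Cenpe, Uhrf1 and Tubb5, with differences from -2.41 to -0.65, and Ccna2, Ccne1, Plk1, Cenpe and Uhrf1 lost their calls in 10 to 14 of the 24 or 25 alternatives that could test them. The count of 10 was 4 to 12 when single libraries were left out, 4 of them without WT NKT1 replicate 1 or without SKG NKT1 replicate 2, and it was 0 with only the libraries that lacked Xist (edgeR, 8 of 40 at an unadjusted p under 0.05), where the median was -0.399.

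**Figure D4:**
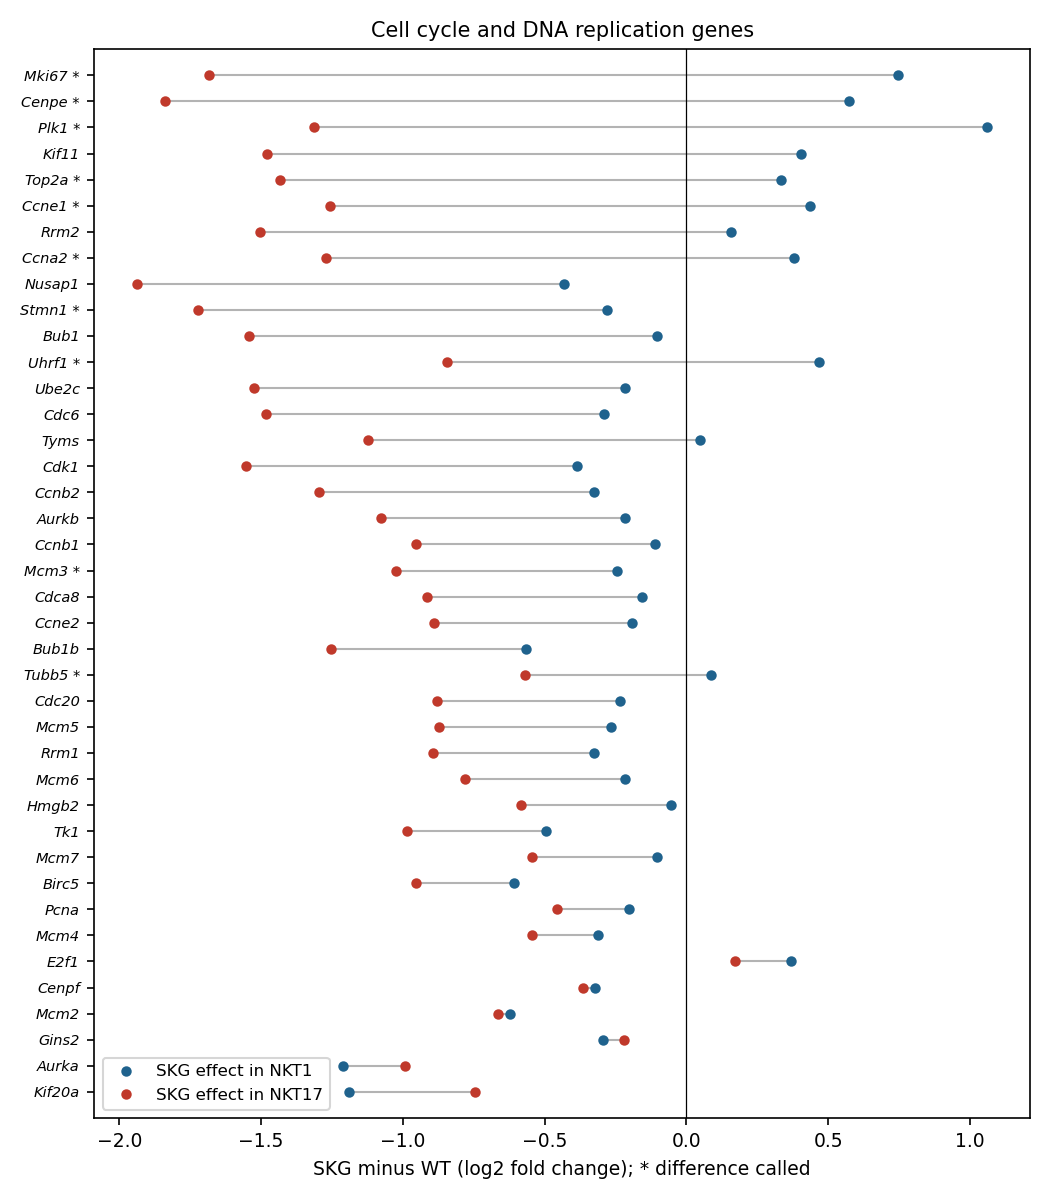
SKG effect (log2 fold change, horizontal axis) of the 40 cell cycle and DNA replication genes in NKT1 (blue) and NKT17 (red), ordered by the effect difference, with called genes marked by an asterisk. The NKT17 point lies to the left of the NKT1 point in 37 of the 40 genes.

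Gimap4, a GTPase gene of the GIMAP family known for its expression in lymphocytes, was among the 12 negative differences with the smallest p. It was at 317, 307 and 259 CPM in WT NKT17 and 23.2, 9.07 and 17.3 CPM in SKG NKT17, an effect of -4.14 ± 0.30 (SE). In NKT1 it was at 1797, 1962 and 2062 CPM in WT and 1626, 1278 and 1805 CPM in SKG. For Gimap4 the effect difference was -3.83 ± 0.38 (SE, adjusted p = 4.77e-05). After these values were seen, the rest of the family was examined, so the family count carries no test. Of its 8 tested members 5 were called negative (2.12% of all genes), all 8 had a difference below 0 (5402 of all 11118 genes), and the median was -1.43. SKG was lower for 7 of the 8 in NKT17 (4.54% of all genes) and for 0 in NKT1 (1.82% of all genes).

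Gimap6 fell in NKT17 from 240.3, 266 and 284 CPM to 53.4, 25.8 and 53.1 CPM, Gimap5 from 46.9, 45.0 and 49.8 CPM to 16.4, 8.20 and 22.9 CPM, and Gimap8 from 44.5, 42.6 and 69.9 CPM to 18.4, 12.4 and 24.2 CPM. Gimap1 fell from 199, 201 and 197 CPM to 117, 65.1 and 127 CPM. The adjusted p of the effect difference (edgeR) was 0.0579 for Gimap1, 0.0756 for Gimap5, 0.0113 for Gimap6 and 0.00618 for Gimap8. The WT and SKG NKT17 libraries did not overlap for any of these 4 genes, as for 26.9% of all tested genes. Gimap3 was at 28.3, 48.0 and 53.0 CPM in WT and 24.5, 14.0 and 19.1 CPM in SKG NKT17, Gimap9 at 88.6, 81.2 and 57.4 CPM and 45.2, 33.1 and 41.1 CPM, with no overlap in either gene, and Gimap7 at 2.06 CPM or less in all 6 NKT17 libraries. In WT, NKT1 was above NKT17 for all 8 genes. The family count of 5 was 3 to 6 over the alternatives, and 6 with only the libraries that lacked Xist.

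The 8 genes lie together on chromosome 6, from Gimap8 at chr6:48597233-48610874 to Gimap3 at chr6:48715088-48716518 of NCBIM37. Gimap1 spans Gimap7 and overlaps Gimap5 in the annotation, so reads in the shared stretches cannot be placed with certainty. The 250 bases before the start of the 3 called members that held a searched motif are shown because the genes are neighbours that moved together. They are from RefSeq on GRCm38.p6, a different build from the gene positions above, 5′ to 3′ on the strand of the gene. Capitals mark matches to GGAAAA, the core of NFAT sites, or TGTGGT, the core of RUNX sites, on either strand. Gimap1 is at chr6:48738797-48739046 (plus strand), Gimap4 at chr6:48684328-48684577 (plus strand) and Gimap6 at chr6:48708245-48708494 (minus strand). The Gimap1 stretch precedes the RefSeq start, which lies between the Gimap7 and Gimap5 stretches. In the annotation used for the gene positions Gimap1 starts before Gimap7 (chr6:48668606 and chr6:48668620 of NCBIM37), so the sources place the start of Gimap1 differently.
Gimap1: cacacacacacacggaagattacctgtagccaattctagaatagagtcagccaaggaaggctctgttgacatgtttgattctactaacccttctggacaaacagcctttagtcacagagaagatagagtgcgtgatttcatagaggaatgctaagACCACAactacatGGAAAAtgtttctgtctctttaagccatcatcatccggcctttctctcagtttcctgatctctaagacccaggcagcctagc
Gimap4: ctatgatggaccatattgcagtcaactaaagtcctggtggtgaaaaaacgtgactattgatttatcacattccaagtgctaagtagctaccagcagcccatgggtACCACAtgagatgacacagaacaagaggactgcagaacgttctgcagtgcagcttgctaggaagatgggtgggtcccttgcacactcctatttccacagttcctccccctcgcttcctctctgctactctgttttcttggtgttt
Gimap6: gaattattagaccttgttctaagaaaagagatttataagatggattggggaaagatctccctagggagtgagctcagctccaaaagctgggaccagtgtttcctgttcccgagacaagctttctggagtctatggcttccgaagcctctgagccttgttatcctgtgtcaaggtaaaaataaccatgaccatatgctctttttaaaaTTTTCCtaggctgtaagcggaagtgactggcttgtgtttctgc

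Of the 8 family promoters 3 held GGAAAA, where 20.6% of 27025 promoters of this length did, and 3 held TGTGGT, where 14.2% did. None of the 8 held CTTTGA (TCF/LEF, 14.0% of all), TGANTCA (AP-1, 6.87%) or GCGNGGGCG (EGR, 4.65%). The matches in the 3 stretches do not overlap. The called members Gimap5 and Gimap8 held no match. Of the members that were not called, Gimap3 held GGAAAA, Gimap7 held TGTGGT and Gimap9 held none, so the matches did not follow the calls. A match describes the letters only.

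**Figure D5:**
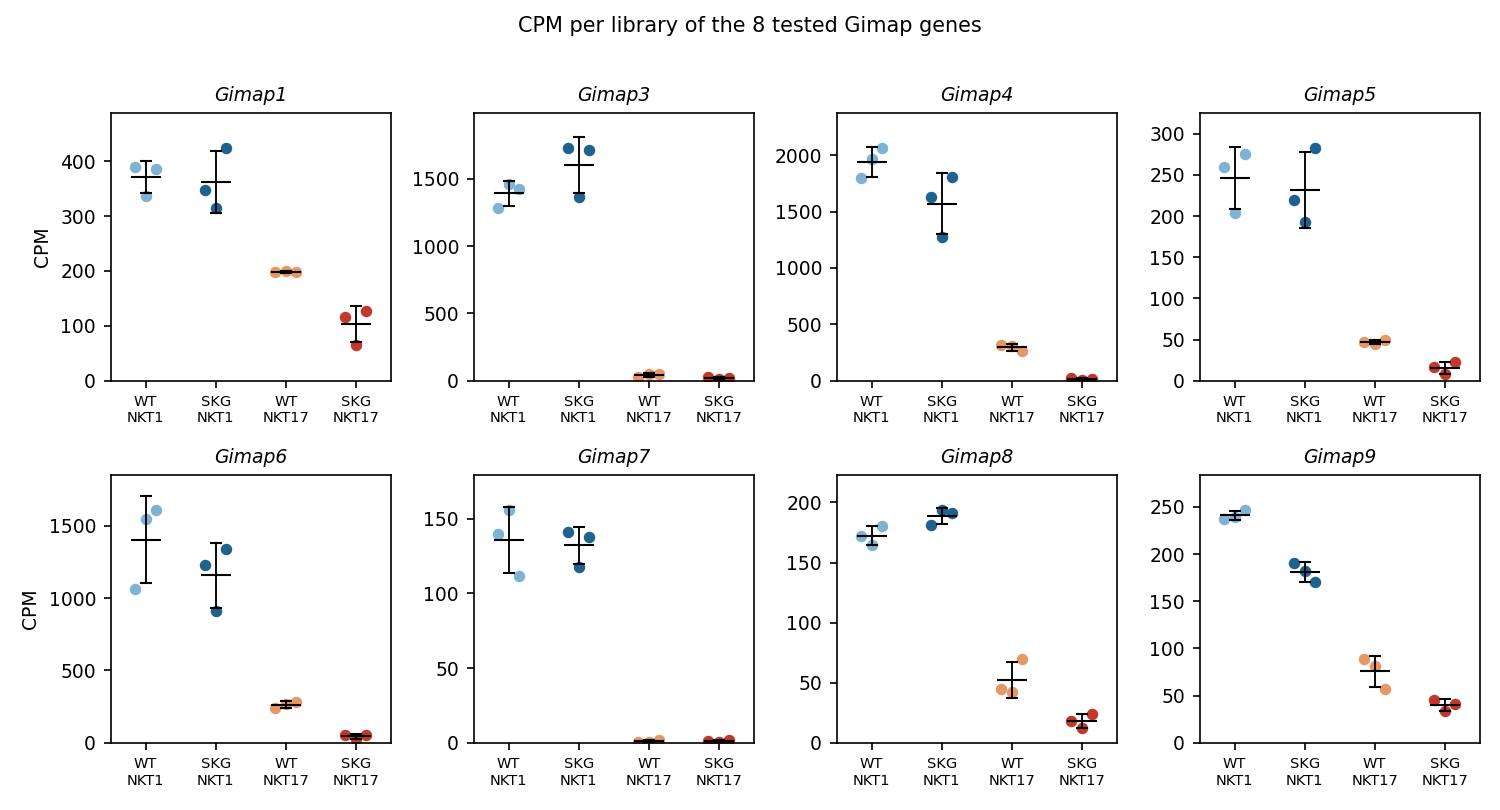
CPM in each library (points, vertical axes from 0) of the 8 tested Gimap genes in WT NKT1, SKG NKT1, WT NKT17 and SKG NKT17, with the mean and SD of 3 libraries as bars. The SKG NKT17 libraries are the lowest of the 4 groups for Gimap1, Gimap3, Gimap4, Gimap5, Gimap6, Gimap8 and Gimap9, and overlap those of WT NKT17 for Gimap7.

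Of 41 tested interferon-stimulated genes, SKG was lower for 15 in NKT17 (4.54% of all genes) and for 16 in NKT1 (1.82% of all genes) and higher for 0 in either. The effect difference was called for 3 (7.32% against 4.17% of all genes), and its median was 9.00e-04. The 3 were Ifit2, an antiviral RNA-binding protein gene, and the genes Isg20 and Irf7. Ifit2 fell in NKT17 from 19.5, 13.4 and 11.7 CPM to 1.98, 5.23 and 1.69 CPM and was at 27.1 to 43.0 CPM and 25.3 to 40.2 CPM in NKT1. Isg20, an exonuclease gene, fell in NKT1 from 184, 177 and 202 CPM to 88.4, 79.4 and 106 CPM and was at 31.8 to 38.9 CPM and 32.5 to 39.2 CPM in NKT17. Irf7, the interferon regulatory factor gene, did likewise, with effects of -0.89 in NKT1 and -0.08 in NKT17.

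Sterol and fatty acid synthesis gave 1 positive and 2 negative calls among 26 tested genes (11.5% against 4.17% of all genes), with a median of -0.0832. Acly, whose enzyme makes cytosolic acetyl-CoA, fell in NKT17 from 562, 482 and 416 CPM to 266, 272 and 264 CPM, and Scd2, a desaturase gene, had effects of -0.53 in NKT17 and 0.29 in NKT1. Sc5d, a cholesterol synthesis gene, had an effect difference of 0.81 ± 0.20 (SE), lost in 6 of 25 alternatives. No effect difference was called by edgeR in the fit over 18 libraries without a block among 19 glycolysis genes, 19 survival and death genes or 17 immediate-early and stress genes, with medians of 0.0117, 0.126 and 0.204. At an unadjusted p under 0.05 there were 2 genes in each of these lists, and DESeq2 called 0, 1 and 1. Other edgeR fits did call members, at most 1 in each direction for glycolysis, 1 for survival, and 3 for the immediate-early genes with genotype by title number as a replicate block, all 3 positive. Of the 9 double-positive thymocyte markers 4 were tested and Cd8a was called, at 2.34, 0 and 1.51 CPM in WT NKT17, 9.77, 0.523 and 5.82 CPM in SKG NKT17, 1.81, 2.29 and 9.92 CPM in WT NKT1 and 0.186, 0.625 and 0 CPM in SKG NKT1, with the genotypes overlapping in NKT17 and the call lost in 11 of 24 alternatives.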

How the data were processed

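Poly-A RNA of 3 sorted iNKT subsets (NKT1, NKT2, NKT17) of WT and SKG thymus was amplified by a Smart-seq2-like method, tagmented and sequenced as 50-base single-end reads. The authors' methods give mm9, TopHat 1.4.1 and htseq-count, while the submitters' processing notes list hg19, mm10, Bowtie 1.0.0, TopHat 1.4.1 and HTSeq 0.7.1 without saying which was used where. The annotation and the strand setting are not given in the sources used here, so overlapping and antisense genes, and near-identical copies, are uncertain. The deposited values were raw counts per gene symbol (23337 symbols, 15582 with a count), and 2 columns of the table that match no sample were not used.

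From these counts, edgeR 4.0.16 in R 4.3.3 was fitted over 18 libraries in 6 groups (TMM factors 0.928 to 1.07, its filter on low counts, robust quasi-likelihood fit, biological coefficient of variation 21.1%, 12 residual degrees of freedom). The NKT2 libraries entered only through the shared spread. Calls required a p under 0.1 after Benjamini-Hochberg adjustment and a change of 1.5-fold or more. CPM used TMM-scaled totals. SE is the log2 value divided by the square root of F. A group with 3 counts or fewer in every library was at the floor, and a fold against it is a lower bound taken from the other group's mean. The fits were tested on simulated data.

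Genes were named by rule: from the called genes whose highest group averaged 50 counts or more, the 12 with the smallest p and the 5 with the largest difference in each direction, and every called gene of the lists. Zap70 and subset markers were always given. Some items that this rule names are not reported here. Lists and members were chosen with earlier results of these data known. The GIMAP family and the genes in the other observations were chosen after their values were seen. Alternatives were DESeq2 1.42.0, other scalings, filters and thresholds, title-number blocks, leaving out each library and, added after seeing the data, a sex term and only the libraries without Xist above 100 CPM. The title numbers were not taken to pair the libraries in the main fit, since only 4 of 6 same-number correlations exceeded 0.1. Even so, 5 of 6 numbers correlated best with their own, and the Xist libraries of a genotype had the same number in both subsets. Gene positions are from GENCODE M1 on NCBIM37, the mouse build of the authors' methods, and promoters from RefSeq on GRCm38.p6. Promoter strand was checked against transcript starts, with 5961 of 7401 plus and 5967 of 7438 minus genes matching.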

Additional observations from a re-analysis of the deposited data

Results flagged for a closer look

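In 17 genes the SKG effect was called in both subsets and ran in opposite directions, and the difference itself passed edgeR's quasi-likelihood test (adjusted p under 0.1). The groups have 3 libraries each, too few for a test of single libraries. In 9 genes SKG was lower in NKT1 and higher in NKT17. The effect differences were 2.10 for Pim2, 3.06 for Furin, 1.78 for Amica1, 1.83 for Cd101, 2.86 for Gadd45g, 2.88 for Ctla2a, 4.49 for Fes, 4.78 for Neurl3 and 6.95 for Tigit. Pim2 was at 151 CPM or more and Furin at 20.1 CPM or more in each of the 12 libraries. The fitted value of Tigit is no measured size, since Tigit was at 0 in WT NKT17. Its rise in SKG NKT17 rests on a few reads per library, with an SKG library at 0 too.

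In the other 8 genes, of which 7 are given, SKG was higher in NKT1 and lower in NKT17. The effect differences were -1.76 for 1700017B05Rik, -2.38 for Ptpn13, -2.71 for Il4, -2.79 for Trpm6, -3.92 for Tnfrsf21, -4.24 for Amph and -8.56 for Il13. Tnfrsf21, which encodes death receptor 6, was at 0, 0.382 and 0 CPM in WT NKT1 and 0.743, 1.04 and 0.866 CPM in SKG NKT1, and at 38.6, 35.8 and 40.8 CPM in WT NKT17 and 13.6, 22.7 and 17.6 CPM in SKG NKT17. Il13 and Tnfrsf21 each had a group at the floor, so their fitted values are no measured sizes.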

How the results depend on the processing

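The count of 464 genes called for the effect difference was 278 at an adjusted p under 0.05, 203 with only the libraries without Xist (172 among the 464) and 296 to 537 when each library was left out, the lowest without SKG NKT17 replicate 3. DESeq2 called 636 genes, which included 460 of the 464, and the share of positive calls was 41.5% to 54.2% over the alternatives. The SKG count in NKT17 was 1398 with no fold minimum and 652 to 1003 when each library was left out, and that in NKT1 was 226 with only the libraries without Xist and 249 to 400 when each library was left out. Fewer libraries entered those fits, and the cause was not tested further. The libraries left out by the Xist criterion were 1 of 3 in each group.

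With the title number as a replicate block 523 genes were called for the difference (445 among the 464), and 537 with genotype by title number (436 among the 464). With only the title numbers that both genotypes share and a replicate block, the counts were 131 for the difference, 509 in NKT17 and 217 in NKT1. Same-number correlations of the deviations from the group means were -0.007 to 0.198, and 5 of 6 numbers correlated best with their own.

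Of 94 called genes followed none reversed, 36 kept their call in every alternative that could test them, and 58 lost it in at least 1, most often with only the shared title numbers (49 genes) or only the libraries without Xist (40 genes). Signs changed only in markers that were not called, most of them near the floor in 1 subset. With only the libraries without Xist the difference was 0.14 for Ifng, -0.0571 for Il22, 2.20 for Itga1, -0.0765 for Klrb1c, -0.17 for Maf, 0.41 for Sdc1 and 0.0778 for Serpinb1a. It was -0.0568 for Il22 with DESeq2, and 2.01 for Itga1 and 0.079 for Sdc1 with the shared title numbers. With each library left out the ranges were -0.0348 to 0.37 for Aqp3, -0.90 to 2.63 for Dkk3, -2.81 to 2.94 for Il1r1, -0.33 to 1.42 for Il22, -2.82 to 1.64 for Il23r, -2.54 to 1.90 for Itga1, -0.19 to 0.31 for Klrb1c, -0.0381 to 0.31 for Maf, -1.65 to 0.65 for Sdc1 and -0.50 to 1.44 for Tbx21. Depth limits the difference for genes at the floor in both groups of a subset.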

Other observations

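Other gene groups were noticed in the called genes after the values were seen, so their counts describe these libraries and carry no test. Apart from Phgdh, their called genes were not followed singly through the alternative analyses. Annexin and S100 genes encode calcium-binding membrane and cytoskeletal proteins, and Ahnak, a gene of neither family, was listed with them. The effect difference was above 0 in 14 of 14 tested genes of the list (5715 of all 11118). Their median was 0.49, and 4 were called (28.6% against 2.05% of all genes). These were Anxa1, Anxa2, Anxa4 and Ahnak, and no S100 gene was called. Anxa2 was at 104, 136 and 158 CPM in WT NKT17 and 303, 233 and 248 CPM in SKG NKT17, against 980.1 to 1243 CPM and 745 to 779 CPM in WT and SKG NKT1. Anxa1 was at 2.73, 4.00 and 2.20 CPM and 22.4, 27.6 and 17.8 CPM in WT and SKG NKT17. Of 5 tested MS4A genes, a family of membrane proteins, Ms4a4b, Ms4a6b and Ms4a6d were called positive (2.05% of all genes). Ms4a4b was at 6.64, 10.4 and 8.92 CPM in WT NKT17, 26.8, 25.3 and 15.8 CPM in SKG NKT17, 2809, 2669 and 2859 CPM in WT NKT1 and 2507, 2665 and 2553 CPM in SKG NKT1.

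Among 23 tested NF-κB subunits and regulators Nfkb2 and Relb, the subunit genes of the non-canonical pathway, were called, both positive (8.70% against 2.05% of all genes). Relb had effects of 0.52 ± 0.13 in NKT17 and -0.68 ± 0.13 in NKT1 (SE), and Nfkb2 had effects of 0.74 ± 0.13 and -0.44 ± 0.13. Serine, folate and nucleotide synthesis genes were listed with the transporter genes Slc19a1 and Slc29a1. The list was called on the negative side alone, 5 of 28 (17.9% against 2.12% of all genes). Of the 28, 25 were below 0 (5402 of all 11118 genes), with a median of -0.40. Besides Phgdh these were Shmt1, Slc19a1, Dut and Slc29a1. Slc19a1, which encodes the reduced folate carrier, was at 159, 166 and 148 CPM in WT NKT17 and 67.4, 68.0 and 47.1 CPM in SKG NKT17, and at 29.9 to 55.3 CPM and 54.6 to 70.8 CPM in WT and SKG NKT1. Shmt1 had effects of -1.26 ± 0.22 in NKT17 and 0.30 ± 0.22 in NKT1.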
